A study of Mus musculus with 24 samples.

Results

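The HSP70 and HSP110 heat shock proteins were read in whole mouse brain over 10 genes: the inducible Hspa1a and Hspa1b, the constitutive or tissue-enriched Hspa2 and Hspa8, the mitochondrial Hspa9, the more distant Hspa14 and Hspa12a, and the HSP110 forms Hspa4, Hspa4l and Hsph1. Members were all Affymetrix probe sets whose annotation gave one of these symbols alone, which found 32 of the 45101 probe sets. Of the 32, 29 passed a filter that left out the 40% of probe sets with the lowest mean signal. The dimmest probe set of Hspa14 (1439826_at), Hspa12a (1430040_at) and Hspa4 (1440575_at) did not pass and was not tested. Total RNA came from brains of mice aged 4 months, in 4 groups of 6 arrays, 1 array per sample: aSYN/Hsp70, which carried both genotypes, Hsp70, aSYN and wt (wild type). The labels do not spell out aSYN and give no strain, promoter, clone or species of origin for either genotype, so an Hsp70 sequence introduced from another species might go unread by these mouse probes. Separate animals are not stated for the samples of a group, so p-values here measure only how these samples scatter, which may be partly technical. By sex-linked genes every group held both females and males, so more than 1 animal, but the number of animals is not known. Levels are log2(intensity + 16) after quantile normalisation, and a difference between groups is given in the same log2 units, with its standard error (SE) where it was tested.

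HSP70 proteins bind exposed hydrophobic stretches of unfolded proteins in a cycle of ATP binding and hydrolysis. J-domain proteins deliver clients and start hydrolysis, while nucleotide exchange factors, the HSP110 proteins among them, release ADP and so reset the cycle. In neurons the constitutive form strips clathrin from vesicles and, with J-domain and HSP110 partners, can take protein aggregates apart. The inducible genes are switched on by heat shock factor, which binds repeats of the letters GAA and TTC in their promoters.

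The inducible genes Hspa1a and Hspa1b are near-identical copies, and their promoters are shown because the copies cannot be told apart by most of their sequence. In assembly GRCm38.p6, Hspa1a lies on the minus strand of chr17:34969359-34972156 and Hspa1b on chr17:34956429-34959238, 10120 bases apart. The HSP110 gene Hsph1 (chr5:149616843-149636498, minus strand) is shown beside them because its signal varied with that of Hspa1b. Sequences are from RefSeq, read 5′ to 3′, with matches to GAANNTTC or TTCNNGAA in capitals. The Hspa1a and Hspa1b stretches end at the base before the gene. That of Hsph1 ends at the base before one of its annotated transcript starts, at 149636336, which lies 162 bases inside the gene's outermost 5′ end.
Hspa1a, chr17:34972157-34972406, minus strand: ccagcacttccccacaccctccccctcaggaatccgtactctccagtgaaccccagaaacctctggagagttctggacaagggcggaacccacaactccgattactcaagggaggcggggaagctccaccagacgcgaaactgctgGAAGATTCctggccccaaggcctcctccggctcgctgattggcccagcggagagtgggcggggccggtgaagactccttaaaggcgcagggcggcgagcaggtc
Hspa1b, chr17:34959239-34959488, minus strand: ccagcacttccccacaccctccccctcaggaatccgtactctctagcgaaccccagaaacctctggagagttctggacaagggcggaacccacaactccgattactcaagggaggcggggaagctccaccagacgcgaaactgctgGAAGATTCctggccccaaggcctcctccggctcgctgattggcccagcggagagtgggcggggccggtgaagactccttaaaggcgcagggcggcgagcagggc
Hsph1, chr5:149636337-149636436, minus strand: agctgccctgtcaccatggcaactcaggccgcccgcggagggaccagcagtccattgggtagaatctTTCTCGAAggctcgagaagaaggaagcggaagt
Counted from 1 at the 5′ end, the printed Hspa1b stretch differs from that of Hspa1a at 3 of 250 bases (C44T, T47C and T249G, with the Hspa1a base first). Each copy holds 1 match, whose first base lies at position -104. In windows of 300 bases, which run 250 before and 50 after a start, Hsph1 holds 3 matches around each of 2 annotated starts. The printed match lies at -33 from the start at 149636336 and at -54 from the one at 149636315, and the start at the outermost 5′ end was not searched. Promoter windows were at hand for 8 of the 10 genes, and the windows of Hspa2, Hspa14, Hspa12a, Hspa4 and Hspa4l hold 0 matches. Of all 32851 promoter windows 15.1% hold at least 1 match and 1.96% at least 2. Both patterns read the same on the opposite strand, and a match is a description of letters, not a binding site.

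Array quality bears on every value that follows. Deposited array medians ran from 458 to 893 intensity units, and each array's median Spearman correlation with the other arrays lay between 0.836 and 0.939. Apart from the rest stood 4 arrays with a limma weight under 0.5, which were replicates 3 and 4 of aSYN/Hsp70 and replicates 3 and 6 of Hsp70. By Xist and Y-linked genes, females numbered 2 of 6 in aSYN/Hsp70, 3 in Hsp70, 4 in aSYN and 4 in wt. As a sign of RNA quality, control transcripts read at their 3′ end exceeded their 5′ end by 0.85 ± 0.09 log2 units in aSYN/Hsp70, 0.92 ± 0.18 in Hsp70, 0.97 ± 0.08 in aSYN and 0.85 ± 0.13 in wt (SD, n = 6). Neuronal Snap25 and Syt1, astrocytic Slc1a2 and oligodendrocyte Mbp were each brighter than over 99% of probe sets. Pituitary prolactin (Prl) ran from 5.92 to 16.40 log2 units and was highest in wt replicate 5. In whole brain, fewer cells of a type and less RNA per cell cannot be told apart.

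The levels of mouse Hspa1a and Hspa1b overlapped between the brains that carried Hsp70 and those that did not. Hspa1a (probe set 1452388_at) ran from 7.86 to 11.53 log2 units in aSYN/Hsp70, with a median of 11.09. It ran from 10.15 to 11.45 in Hsp70 (median 10.97), from 10.75 to 11.28 in aSYN (median 11.15) and from 10.26 to 11.23 in wt (median 11.09). The 4 groups overlapped, and the lowest value by far was that of aSYN/Hsp70 replicate 4, 1 of the 4 arrays that stood apart. The difference was -0.08 (SE 0.42, 95% interval -0.95 to 0.80, limma adjusted p = 0.979) for Hsp70 versus wt. For aSYN/Hsp70 versus aSYN it was -0.49 (SE 0.42, limma adjusted p = 0.526), and it turned to 0.0668 without that array. Since the copies share most of their sequence, a probe set named for one may read the other.

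The 3 probe sets of Hspa1b were high on the same few arrays. On the brightest of them (1427127_x_at), aSYN/Hsp70 ran from 11.19 to 12.82 (median 12.70) and Hsp70 from 11.21 to 13.73 (median 11.98). On the same probe set aSYN ran from 10.92 to 12.65 (median 11.95) and wt from 11.55 to 13.66 (median 12.03). All groups overlapped: the highest arrays were replicate 6 of Hsp70, replicate 4 of wt and replicate 5 of Hsp70, at 13.73, 13.66 and 13.18, and the lowest was aSYN replicate 5 at 10.92. The wt replicate 4 was also the highest of all 24 arrays on the other Hspa1b probe sets, at 12.39 (1427126_at) and 12.72 (1452318_a_at). Between Hsp70 and wt, the probe sets 1427126_at, 1427127_x_at and 1452318_a_at differed by -0.14 (SE 0.35), 0.19 (SE 0.41) and 0.26 (SE 0.33), with limma adjusted p of 0.958, 0.951 and 0.91. In aSYN/Hsp70 relative to aSYN they differed by 0.10 (SE 0.35), 0.60 (SE 0.41) and 0.26 (SE 0.33), with limma adjusted p of 0.893, 0.422 and 0.67. Over the 12 carriers and 12 non-carriers of Hsp70 the differences were -0.02, 0.39 and 0.26, and that of Hspa1a was -0.28 (limma adjusted p 0.468 to 0.975 over these 4). The 95% intervals of the Hspa1b differences between Hsp70 and wt reached up to 0.59, 1.05 and 0.94 log2 units, so the data do not exclude differences of up to these sizes.

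**Figure D1:**
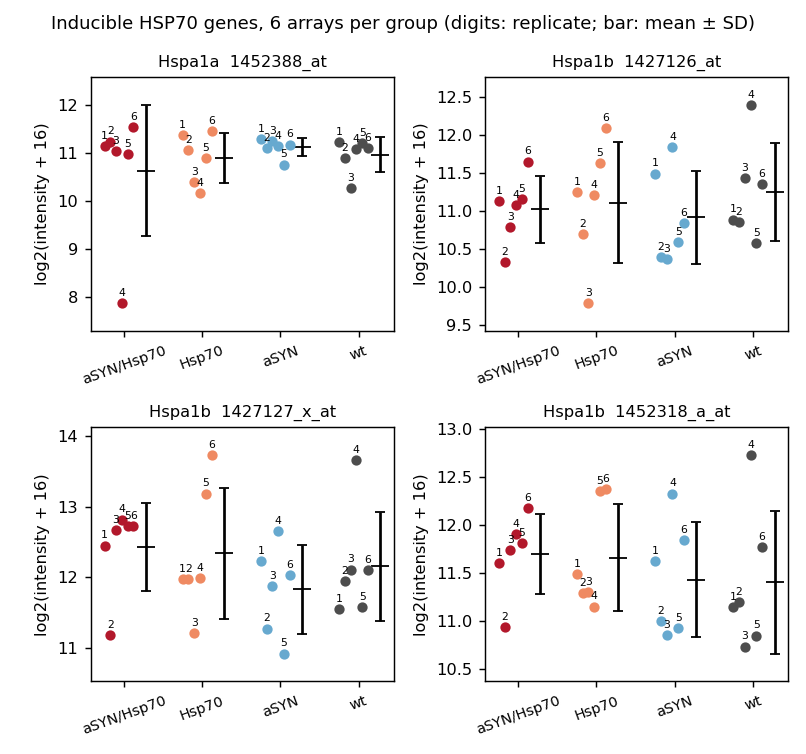
Levels of the Hspa1a probe set and the 3 Hspa1b probe sets, in log2(intensity + 16), on every array of the 4 groups; digits give the replicate and bars the mean ± SD of 6 arrays. Replicate 4 of aSYN/Hsp70 lies apart for Hspa1a at 7.86, and replicate 4 of wt is high on all 3 Hspa1b probe sets.

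Hspa1b varied widely between arrays of the same group, though some probe sets of other members also varied more than most of like level. Its within-group SD, pooled over the 4 groups, was 0.64, 0.75 and 0.59 log2 units on the 3 probe sets. Among the tested probe sets within 0.5 log2 units of the same mean level, 97.7%, 99.6% and 98.3% had a smaller SD. On the brightest probe set, the highest array was 6.99 times the lowest. Without the 4 arrays that stood apart the SDs were 0.58, 0.69 and 0.62. Without wt replicate 4 and Hsp70 replicate 6, the 2 highest arrays on the brightest probe set, they were 0.55, 0.59 and 0.48, larger than in 94.6%, 99% and 96% of probe sets of like level. Both sets of arrays were left out after seeing the data. For Hspa1a the SD of 0.76 rested on aSYN/Hsp70 replicate 4, without which it was 0.36 (larger than in 85.2% of probe sets of like level). At the other end, Hspa4 (1416146_at) had an SD of 0.11, with 5.27% of probe sets of like level below it, while another Hspa4 probe set (1416147_at) had 0.37, with 90.4% below it. By the same share, Hspa8 ran from 76% (1431182_at) to 94.3% (1420622_a_at) and Hspa4l from 19.4% (1449010_at) to 95% (1458385_at). Hsph1 was at 74.6% (1425993_a_at) and 88.8% (1423566_a_at).

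Among the constitutive forms, Hspa8, the cognate HSP70 of the cytosol, gave the brightest member signals. Its probe set 1455789_x_at averaged 17.08 ± 0.15 log2 units in aSYN/Hsp70, 17.04 ± 0.22 in Hsp70, 17.05 ± 0.18 in aSYN and 17.17 ± 0.10 in wt (SD, n = 6). The 24 arrays lay between 16.61 and 17.28, so all groups overlapped. The highest value, 17.28, was shared by aSYN/Hsp70 replicate 6, aSYN replicate 4 and wt replicate 4, an exact tie that quantile normalisation gives to probe sets of the same rank. Hspa2, best known for its role in male germ cells, averaged 11.86 ± 0.25 in aSYN/Hsp70, 11.81 ± 0.17 in Hsp70, 11.74 ± 0.10 in aSYN and 11.63 ± 0.24 in wt. Its highest mean, in aSYN/Hsp70, exceeded its lowest, in wt, by 0.23 (SE 0.12, limma adjusted p = 0.368), and all 6 aSYN/Hsp70 arrays lay above the wt mean. That was less than the SD within aSYN/Hsp70 and wt but more than that within Hsp70 and aSYN. In 0 of 7 comparisons did any of the 5 probe sets of Hspa8 and Hspa2 have an unadjusted p under 0.05.

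Hspa9, the mitochondrial HSP70 also called mortalin, was read by 5 probe sets that did not run together. Its brightest (1418504_at) ran from 13.37 to 13.85 in aSYN/Hsp70 (median 13.74), from 13.65 to 13.80 in Hsp70 (median 13.73), from 13.67 to 13.96 in aSYN (median 13.88) and from 13.80 to 13.95 in wt (median 13.83). The 6 Hsp70 arrays lay just below the 6 wt arrays with no overlap, by a mean of -0.12 (SE 0.08, limma adjusted p = 0.881). Over all carriers against non-carriers of Hsp70 the difference was -0.13 (SE 0.05, limma adjusted p = 0.226). The Hspa9 probe set next in level (1418503_at) was at -0.33 (SE 0.12, limma adjusted p = 0.157) for aSYN/Hsp70 versus aSYN, with 5 of 6 arrays below the aSYN mean, and at -0.21 (limma adjusted p = 0.41) without the 4 arrays that stood apart. Another (1431274_a_at) was at 0.36 (SE 0.16, limma adjusted p = 0.217) in the same comparison, in the opposite direction. For carriers versus non-carriers, 1418503_at and 1447728_x_at were at -0.21 (SE 0.09) and -0.32 (SE 0.26). There 1431274_a_at and 1453811_at were at 0.26 (SE 0.11) and 0.28 (SE 0.35), the opposite direction. For Hsp70 versus wt, 1418503_at was at -0.10 (SE 0.12), while 1431274_a_at, 1447728_x_at and 1453811_at were at 0.16 (SE 0.16), 0.06 (SE 0.37) and 0.81 (SE 0.49). After subtracting group means, 1418503_at and 1431274_a_at correlated over the 24 arrays at r = -0.30, while 1418503_at and 1418504_at did at 0.71. Chromosome 18 holds the gene (34937414 to 34954351).

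Hspa14, known in human cells as part of a ribosome-associated chaperone complex, was lower in Hsp70 carriers on its brighter probe set without passing the test. The probe set 1448586_at ran from 11.88 to 12.54 in aSYN/Hsp70 (median 12.26), from 12.12 to 12.40 in Hsp70 (median 12.34), from 12.30 to 12.55 in aSYN (median 12.44) and from 12.26 to 12.60 in wt (median 12.49). The groups overlapped, and 11 of 12 carriers lay below the mean of the non-carriers (-0.19, SE 0.07, limma adjusted p = 0.21). The difference was -0.0856 without the 4 arrays of low weight. A dim probe set of Hspa14 (1417095_a_at) was the other one of the 29 on which Hsp70 and wt did not overlap, at 7.58 to 8.25 in Hsp70 against 8.38 to 9.02 in wt (limma adjusted p = 0.881). These 2 non-overlapping probe sets, chosen after their values were seen, stand beside 0.27% of all tested probe sets, and the members' count was 0 for aSYN/Hsp70 versus aSYN (beside 2.05%), aSYN versus wt (beside 1.17%), aSYN/Hsp70 versus Hsp70 (beside 0.311%) and aSYN/Hsp70 versus wt (beside 0.888%).

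Hspa12a, a distant relative of HSP70 expressed in brain, gave the smallest p-value of the family for what Hsp70 added to aSYN. Its probe set 1447222_at ran from 10.35 to 11.08 in aSYN/Hsp70 (median 10.56), from 9.67 to 10.90 in Hsp70 (median 10.24), from 9.51 to 10.44 in aSYN (median 9.99) and from 10.04 to 10.63 in wt (median 10.48). All 6 aSYN/Hsp70 arrays lay above the aSYN mean, but the 2 groups overlapped at aSYN replicate 5. The difference was 0.62 (SE 0.18, limma adjusted p = 0.0947), and that of aSYN versus wt was -0.43 (SE 0.18, limma adjusted p = 0.837). The interaction, which is the aSYN difference with Hsp70 minus that without it, was 0.74 (SE 0.26, limma adjusted p = 0.427). These 3 values share the aSYN arrays and are not independent. The brighter Hspa12a probe sets 1436961_at and 1434051_s_at differed by 0.14 (SE 0.08) and 0.07 (SE 0.09) between aSYN/Hsp70 and aSYN, with limma adjusted p of 0.346 and 0.684.

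The HSP110 genes encode exchange factors that release ADP from HSP70. Hspa4 ran from 12.45 to 12.90 on probe set 1416146_at in aSYN/Hsp70 (median 12.64), from 12.62 to 12.79 in Hsp70 (median 12.74), from 12.78 to 12.98 in aSYN (median 12.83) and from 12.67 to 12.97 in wt (median 12.88). On this probe set carriers of Hsp70 sat lower, with 11 of 12 below the non-carrier mean, yet the ranges overlapped. The difference was -0.16 (SE 0.05, limma adjusted p = 0.204) for carriers and -0.20 (SE 0.08, limma adjusted p = 0.169) for aSYN/Hsp70 versus aSYN. The other tested Hspa4 probe sets, 1416147_at and 1435194_at, differed by 0.15 (SE 0.21) and -0.07 (SE 0.14) in that comparison. For carriers they differed by -0.007 (SE 0.15) and -0.05 (SE 0.10), with 4 and 8 of 12 below the non-carrier mean.

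Hspa4l, the HSP110 form also called Osp94, was the only member with an unadjusted p under 0.05 for Hsp70 versus wt. On probe set 1439093_at the arrays ran from 11.96 to 12.57 in aSYN/Hsp70 (median 12.24), from 12.06 to 12.54 in Hsp70 (median 12.37), from 12.16 to 12.67 in aSYN (median 12.41) and from 12.53 to 12.75 in wt (median 12.59). Each of the 6 Hsp70 arrays and of the 6 aSYN/Hsp70 arrays lay below the wt mean, and each of the 2 groups met the wt range only at its highest array. The aSYN arrays, which carry no Hsp70, also sat lower, with 5 of 6 below the wt mean (-0.18, SE 0.10). The difference was -0.26 (SE 0.10, limma adjusted p = 0.881) for Hsp70 versus wt and -0.34 (SE 0.10, limma adjusted p = 0.245) for aSYN/Hsp70 versus wt, which share the wt arrays. Without the 4 arrays that stood apart these were -0.179 and -0.244. A second probe set (1429106_at) was at -0.41 (SE 0.17, limma adjusted p = 0.193) for aSYN/Hsp70 versus aSYN and -0.36 (SE 0.17, limma adjusted p = 0.504) for aSYN/Hsp70 versus Hsp70. Its lowest arrays were aSYN/Hsp70 replicates 4 and 3 and Hsp70 replicate 3, at 11.37, 11.83 and 11.91, all of which stood apart in quality, and these differences were -0.134 and -0.228 without the 4 arrays. The brightest Hspa4l probe set (1418253_a_at) differed by -0.03 (SE 0.11) in aSYN/Hsp70 versus aSYN. Against wt it was lower in every other group, by -0.18 in Hsp70, -0.22 in aSYN and -0.24 in aSYN/Hsp70 (SE 0.11 each).

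Hsph1, the heat-inducible HSP110, averaged 15.53 ± 0.17 on probe set 1425993_a_at in aSYN/Hsp70, 15.53 ± 0.14 in Hsp70, 15.40 ± 0.21 in aSYN and 15.51 ± 0.13 in wt (SD, n = 6). The groups overlapped, and aSYN held both the lowest array (replicate 6, 15.13) and one of the 3 highest (replicate 4, 15.74). The differences were 0.13 (SE 0.10, limma adjusted p = 0.473) for aSYN/Hsp70 versus aSYN and 0.02 (SE 0.10, limma adjusted p = 0.977) for Hsp70 versus wt. The other Hsph1 probe set (1423566_a_at) was at -0.04 (SE 0.14, limma adjusted p = 0.902) and -0.15 (SE 0.14, limma adjusted p = 0.892), the opposite direction in both.

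**Figure D2:**
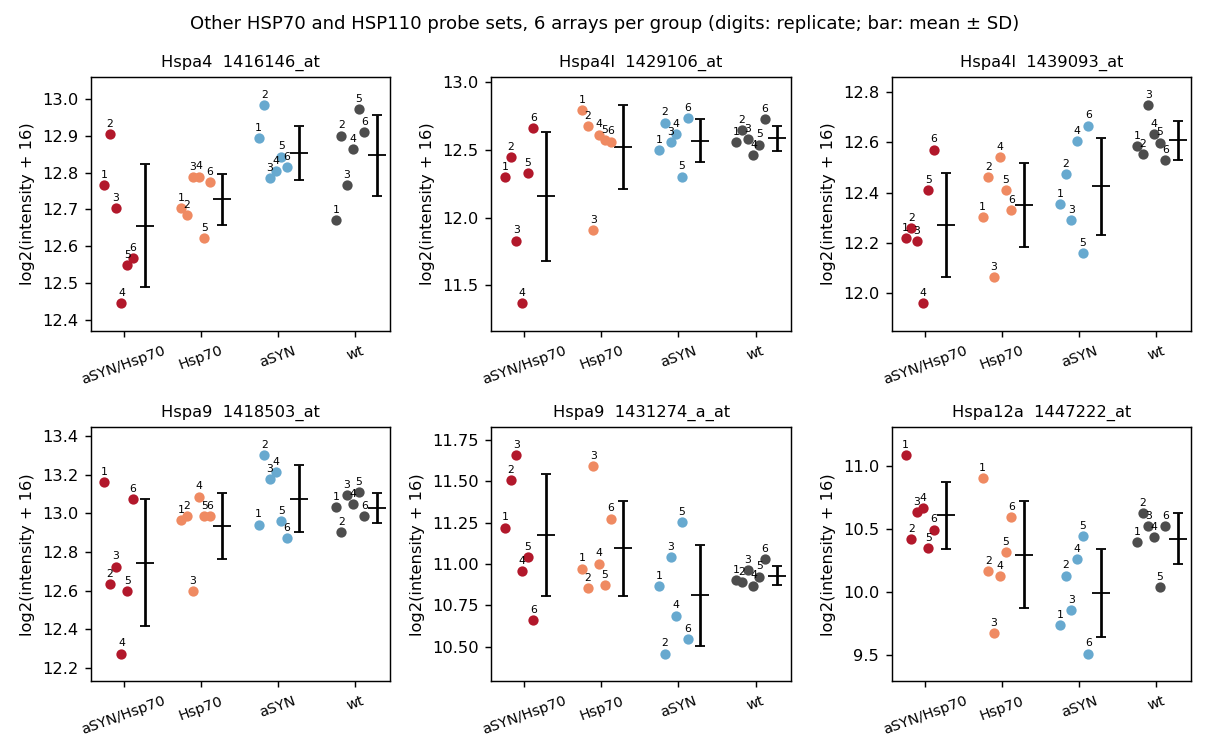
Levels in log2(intensity + 16) of 6 probe sets of Hspa4, Hspa4l, Hspa9 and Hspa12a on every array of the 4 groups; digits give the replicate and bars the mean ± SD of 6 arrays. The aSYN/Hsp70 arrays span most of the range for Hspa4l 1429106_at and Hspa9 1418503_at, with replicate 4 lowest on both.

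Across the family, limma called 0 of the 29 probe sets at adjusted p 0.05 in all 7 comparisons. Called over all 27022 tested probe sets were 0% for Hsp70 versus wt, 0.718% for aSYN/Hsp70 versus aSYN, 0% for Hsp70 carriers versus non-carriers, 0.0037% for aSYN versus wt, and 0% for aSYN/Hsp70 versus Hsp70, for aSYN/Hsp70 versus wt and for the interaction. At an unadjusted p under 0.05, members numbered 1 (3.45%, beside 4.83% of all) for Hsp70 versus wt and 6 (20.7%, beside 19.6%) for aSYN/Hsp70 versus aSYN. For carriers versus non-carriers they numbered 6 (20.7%, beside 17.7%), and for aSYN/Hsp70 versus wt 7 (24.1%, beside 14.5%), all 7 below 0. The counts were 1 each for aSYN versus wt (beside 5.17%), aSYN/Hsp70 versus Hsp70 (beside 9.62%) and the interaction (beside 8.13%). Without the 4 arrays of low weight they were 1 for aSYN/Hsp70 versus aSYN (beside 14.1% of all in that fit), 2 for carriers versus non-carriers (beside 8.01%) and 1 for aSYN/Hsp70 versus wt (beside 8.5%). In that fit the count rose to 3 for aSYN versus wt (beside 10.4%). It stayed at 1 for Hsp70 versus wt (beside 3.97%), aSYN/Hsp70 versus Hsp70 (beside 8.33%) and the interaction (beside 10.1%). With the sex covariate the calls at adjusted p 0.05 were again 0 of 29.

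The share of members below 0 was read beside that of all tested probe sets. Below 0 lay 20 of 29 members (69%) for Hsp70 versus wt, beside 53.4% of all probe sets, with medians of -0.10 for the members and -0.02 for all. The counts were 16 (55.2%, beside 54.3%) for aSYN/Hsp70 versus aSYN, 20 (beside 55.2%) for carriers versus non-carriers, 20 (beside 50.1%) for aSYN versus wt, 15 (beside 52.5%) for aSYN/Hsp70 versus Hsp70 and 20 (beside 55.4%) for aSYN/Hsp70 versus wt. Member medians were -0.04 (all probe sets -0.03) for aSYN/Hsp70 versus aSYN, -0.05 (-0.03) for carriers, -0.06 (-0.00018) for aSYN versus wt, -0.01 (-0.01) for aSYN/Hsp70 versus Hsp70 and -0.14 (-0.04) for aSYN/Hsp70 versus wt. In aSYN/Hsp70 versus aSYN and in aSYN/Hsp70 versus Hsp70, shares and medians were near those of all probe sets. For the interaction 12 of 29 lay below 0 (beside 52.6%), with a median of 0.06 (all probe sets -0.02). Without the 4 arrays the member median was -0.02 for Hsp70 versus wt, 0.05 for aSYN/Hsp70 versus aSYN and -0.04 for aSYN/Hsp70 versus wt (all probe sets 0.0018, -0.0049 and -0.0055), so that of aSYN/Hsp70 versus aSYN changed sign. That of carriers versus non-carriers also changed sign, to 0.0026 (all probe sets -0.0014), with 14 of 29 members below 0. For aSYN versus wt the member median stayed at -0.06, with 20 of 29 below 0. Probe sets of a gene share RNA and several comparisons share arrays, so the counts are not independent of each other.

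**Figure D3:**
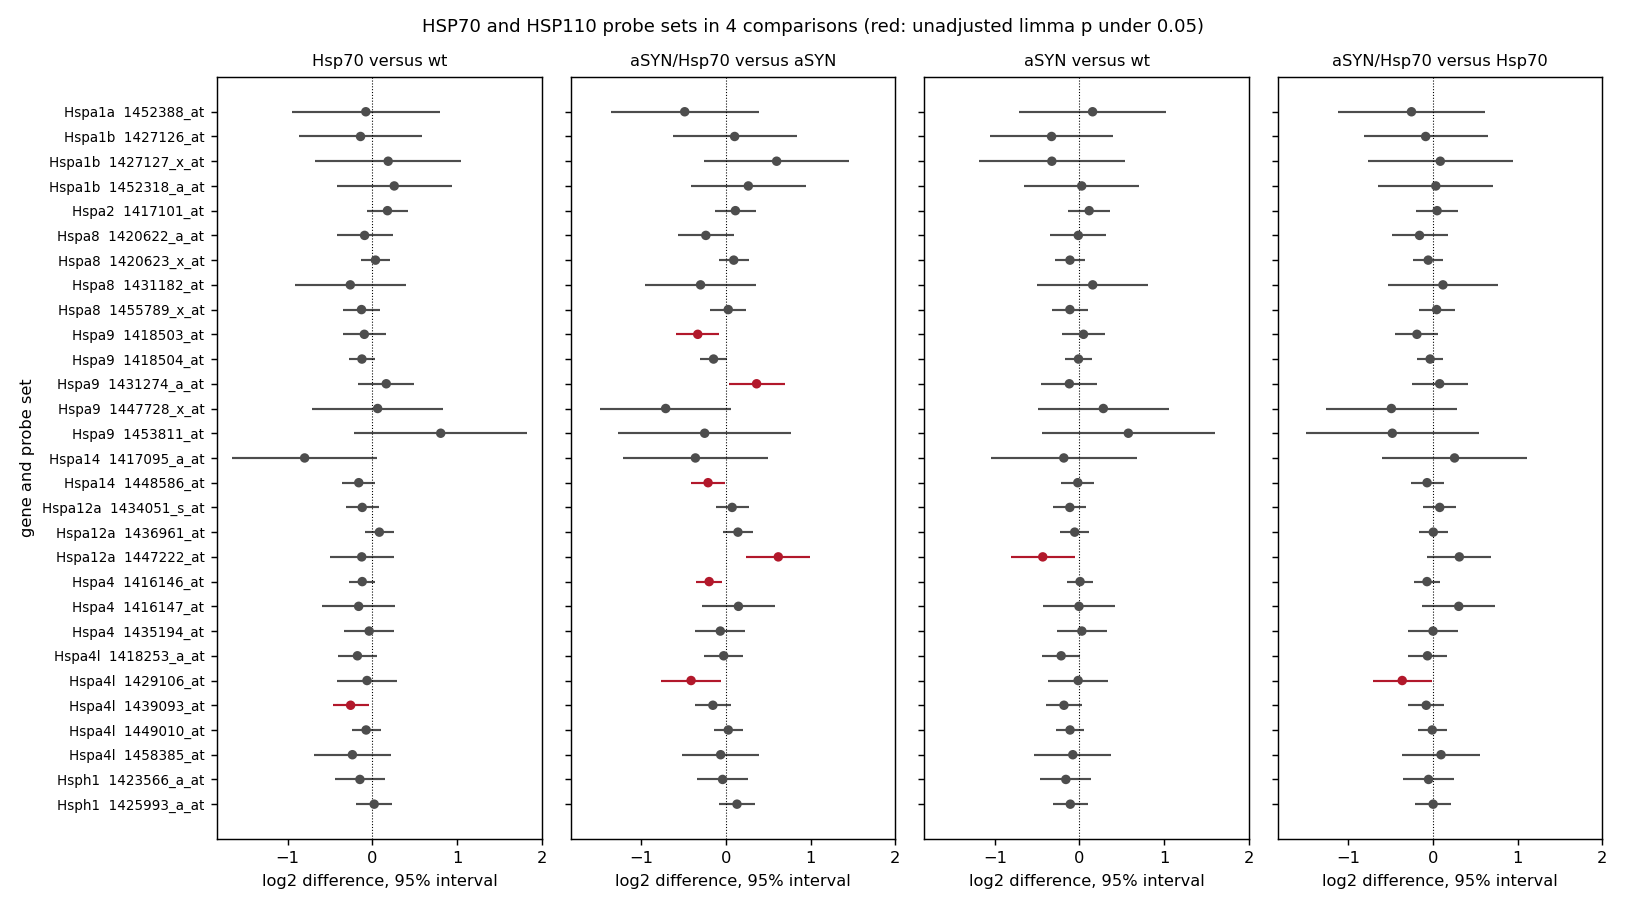
Log2 differences of the 29 tested probe sets (rows, ordered by role) with 95% intervals in 4 comparisons of 2 groups; red marks an unadjusted limma p under 0.05. The widest intervals belong to the dim and the inducible probe sets, and red marks number 1, 6, 1 and 1 in Hsp70 versus wt, aSYN/Hsp70 versus aSYN, aSYN versus wt and aSYN/Hsp70 versus Hsp70.

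The members were then compared by how they varied from array to array inside the groups, using deviations from the group means over the 24 arrays. Of 24 relations between Hspa1b, Hspa8 or Hsph1 and another member, each on the brightest probe set, 3 passed a permutation test within groups after Benjamini-Hochberg adjustment over the 24. Hspa1b and Hsph1, both heat-inducible, correlated at Pearson r = 0.58 (permutation p = 0.00387, adjusted p = 0.0356) and Spearman rho = 0.62 (permutation p = 0.00277, adjusted p = 0.0402). Without the 2 arrays farthest from the Hspa1b median r was 0.49, and without the 4 arrays that stood apart it was 0.54. Within groups r was 0.29 in aSYN/Hsp70, 0.82 in Hsp70, 0.63 in aSYN and 0.69 in wt.

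Hspa8 correlated with Hspa4l at r = 0.71 (permutation p = 0.00133, adjusted p = 0.0319; rho = 0.60, permutation p = 0.00502, adjusted p = 0.0402) and with Hspa14 at r = 0.56 (permutation p = 0.00445, adjusted p = 0.0356; rho = 0.60, permutation p = 0.00495, adjusted p = 0.0402). Both depended on the scaling: without quantile normalisation they were 0.087 and -0.142. That of Hspa8 and Hspa4l was 0.51 without its 2 farthest arrays, and by group it was 0.96 in aSYN/Hsp70, 0.89 in Hsp70, 0.46 in aSYN and 0.01 in wt. That of Hspa8 and Hspa14 was 0.51 without those arrays, and by group 0.74, 0.62, 0.55 and 0.41 in the same order. Hspa1b and Hsph1 were at 0.48 without quantile normalisation.

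Hspa1b was also set against its near-identical neighbour. Against the Hspa1a probe set, the 3 Hspa1b probe sets gave r of 0.03 to 0.11, and 0.02 to 0.31 without the 4 arrays that stood apart. By group, on the brightest Hspa1b probe set, r was -0.32 in aSYN/Hsp70, which holds the low Hspa1a value of replicate 4, 0.57 in Hsp70, 0.73 in aSYN and -0.05 in wt, with 6 arrays each, and the difference between groups was not tested. Among themselves they gave 0.81 to 0.87, though probe sets of one gene may share probes. Over all 37 pairs of probe sets of the same gene the median r was 0.33 (from -0.31 to 0.87, with 5 below 0), beside a median of 0.16 over 369 pairs of different member genes. These medians were 0.24 and 0.04 without the 4 arrays. Agreement was highest for Hspa1b and, among the pairs of Hspa4l, for 1429106_at with 1439093_at (0.74), and it was lowest for Hspa9 (1431274_a_at with 1447728_x_at, -0.31).

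**Figure D4:**
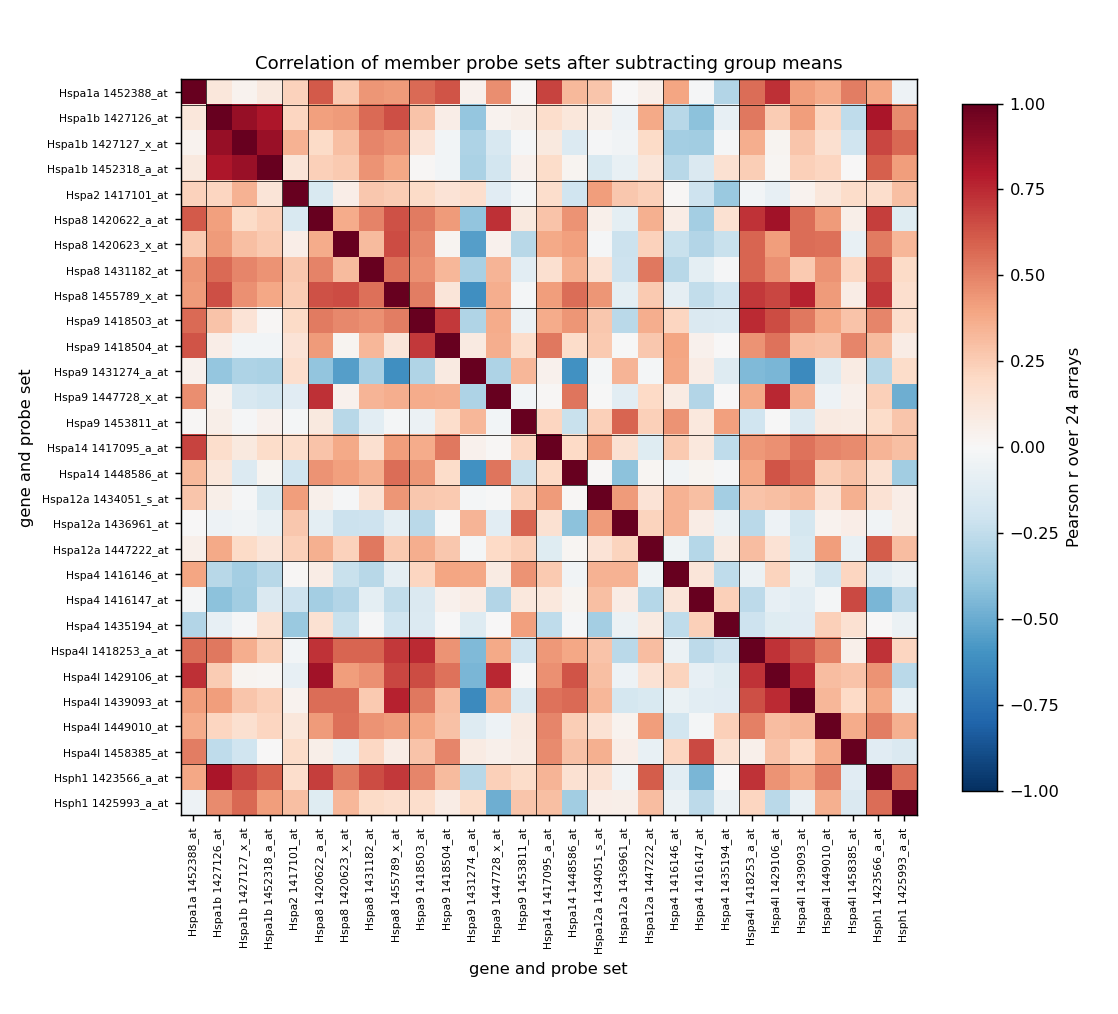
Pearson r between the 29 tested probe sets over 24 arrays after subtracting group means, from -1 (blue) to 1 (red), with lines between genes. The 3 Hspa1b probe sets form a red block that leaves out Hspa1a, and Hspa9 1431274_a_at is blue against most of the others.

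The genes whose within-group pattern was most like that of Hspa1b, over 24 arrays and 27022 probe sets, were Hspb1 (r = 0.82), the small heat shock protein HSP25, then Msl1 (0.81), Ptprj (0.80), Slc18b1 (0.79) and the stress kinase Mapk14 (0.78). For Hsph1 they were Syt7 (0.85), the HSP90 activator Ahsa1 (0.83), Hspb1 again (0.82, on another probe set), the endoplasmic reticulum HSP70 Hspa5 (0.80) and Pcsk1 (0.79). For Hspa8 they were Fbxl20 (0.91), Helz (0.89), Trim9 (0.87), Etv5 (0.87) and Pdp1 (0.86). As maxima over all probe sets these values carry no test. Another Ahsa1 probe set (1444500_at) was at -0.21 with Hsph1. Without the 4 arrays that stood apart, Hspa1b with Hspb1 gave 0.81 and Hsph1 with Ahsa1 0.83, while Hspa8 with Fbxl20 gave 0.84.

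**Figure D5:**
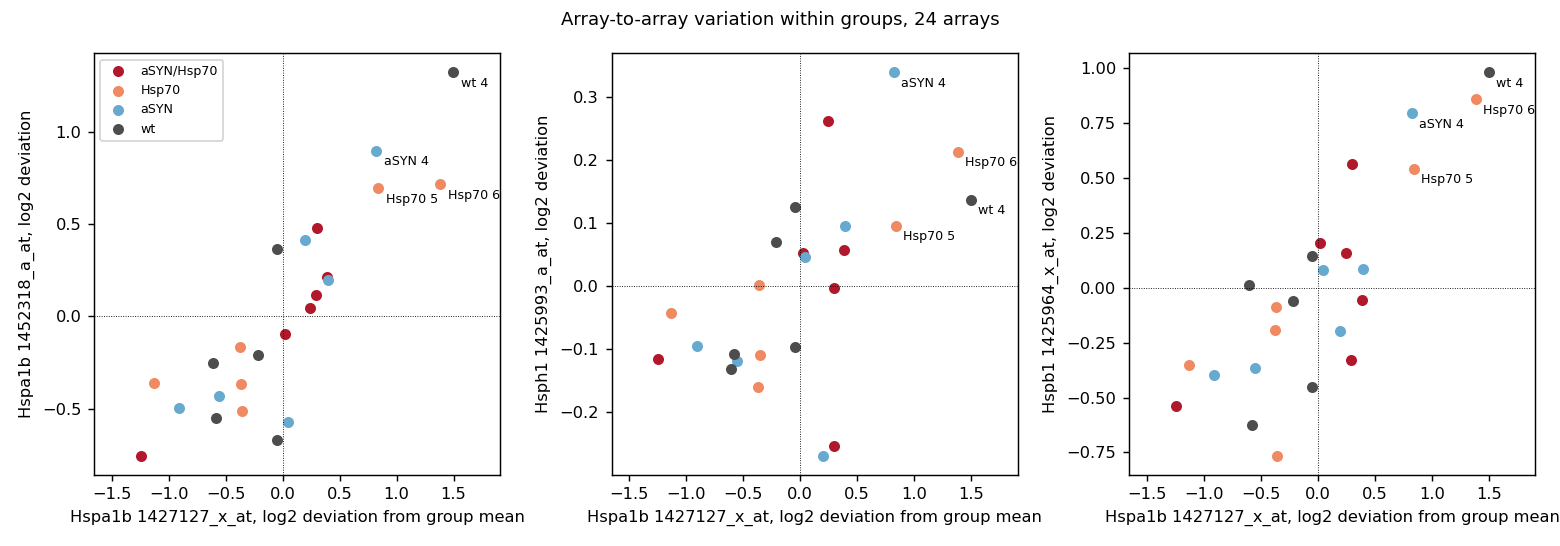
Deviation of each of 24 arrays from its group mean (log2 units) for Hspa1b 1427127_x_at on the horizontal axis, against another Hspa1b probe set, Hsph1 and Hspb1 on the vertical axes; colours mark the groups. Replicate 4 of wt, replicates 5 and 6 of Hsp70 and replicate 4 of aSYN lie at the upper right in all 3 panels.

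A list of 14 inducible heat shock genes, of which 13 were tested on 25 probe sets, was set beside these patterns. With Hspa1b 22 of the 25 probe sets correlated above 0, with a median r of 0.37, where all tested probe sets had a median of -0.01 and 48.8% above 0. With Hspa8 22 were above 0 (median 0.42; all probe sets 0.07, with 56% above 0) and with Hsph1 19 (median 0.31; all probe sets -0.02, with 47.3% above 0). With Hspa1b, the 2 Hspb1 probe sets were at 0.82 and 0.80, the collagen chaperone Serpinh1 at 0.60 and 0.37, and the J-domain gene Dnajb1 at 0.54 and 0.48. The 3 probe sets of the HSP90 gene Hsp90aa1 were at 0.07 to 0.09. Below 0 with Hspa1b were Hspb8 1456434_x_at (-0.32) and 1417013_at (-0.03) and Ahsa1 1444500_at (-0.20). The lowest of the list with Hsph1 was Hspb8 1456434_x_at (-0.49). The same list had 0 calls by limma in each of the 7 comparisons. At an unadjusted p under 0.05 were 0 of 25 for Hsp70 versus wt (beside 4.83% of all probe sets). For aSYN/Hsp70 versus aSYN there were 3 of 25, all below 0 (beside 19.6%). There were 5 below and 1 above 0 for carriers versus non-carriers (beside 17.7%), and 5, all below 0, for aSYN/Hsp70 versus wt (beside 14.5%).

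The partners of HSP70 were read over 5 lists that share some genes and hold 40 in all. Of these, 36 were tested on 81 probe sets. The 1 call was for aSYN/Hsp70 versus aSYN, where 0.718% of all tested probe sets were called. The auxilin gene Dnajc6, which encodes the neuronal J-domain protein that brings HSC70 to clathrin coats, rose in aSYN/Hsp70 relative to aSYN. On probe set 1431216_s_at the arrays ran from 12.94 to 13.39 in aSYN/Hsp70 (median 13.22), from 12.91 to 13.20 in Hsp70 (median 13.11), from 12.52 to 12.88 in aSYN (median 12.73) and from 13.05 to 13.19 in wt (median 13.13). The 6 aSYN arrays were the 6 lowest of the 24, below every other group. Of all tested probe sets, 2.05% had no overlap for aSYN/Hsp70 versus aSYN and 1.17% for aSYN versus wt. The difference was 0.48 (SE 0.08, limma adjusted p = 0.00953), that of aSYN versus wt -0.39 (SE 0.08, limma adjusted p = 0.0952) and the interaction 0.51 (SE 0.11, limma adjusted p = 0.107), all of which share the aSYN arrays.

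The other Dnajc6 probe sets did not pass. The brighter 1433596_at was at 0.20 (SE 0.08, limma adjusted p = 0.184) for aSYN/Hsp70 versus aSYN and the dim 1438896_at at -1.07 (SE 0.58, limma adjusted p = 0.302). In a fit of only the arrays of these 2 groups the Dnajc6 call ended (0.48, SE 0.09, limma adjusted p = 0.107). It held without the 4 arrays that stood apart (0.45, limma adjusted p = 0.0285) and with each of the 12 arrays left out in turn (limma adjusted p 0.00143 to 0.0323). The control 3′ minus 5′ signal was highest in aSYN, as given above, and its part in this difference was not tested.

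The remaining lists made 0 calls in all 7 comparisons. Of 12 J-domain genes on 34 probe sets, Dnajc6 was the only call. Of 11 exchange factors and adaptors on 18 probe sets, the smallest p for aSYN/Hsp70 versus aSYN was that of Bag1, an exchange factor of HSP70, at -0.28 (SE 0.07, limma adjusted p = 0.0592). Of the transcription factors only Hsf2 was tested, on 1 probe set, and it was at 0.11 (SE 0.35, limma adjusted p = 0.881). Of 5 other HSP70-type genes 3 were tested on 10 probe sets, and Hspa5 1447824_x_at was at 0.65 (SE 0.21, limma adjusted p = 0.122). Its mean level was 11.14 log2 units. The brighter Hspa5 probe sets 1416064_a_at (15.72) and 1427464_s_at (13.89) were at 0.23 (SE 0.16) and -0.19 (SE 0.26).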

How the data were processed

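The authors deposited linear intensities, 1 per probe set and array, with no scale stated. Their summarising program was not given in the sources used here. With the lowest and highest 2% of values trimmed, the mean of every array was 2500, so each array had been scaled by 1 factor. The members and gene lists were chosen with earlier results of these data known.

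Intensities were transformed as log2(intensity + 16), which understates differences of dim probe sets, and quantile normalised. Leaving out 64 control and 18015 dim probe sets left 27022. Each comparison was a contrast in 1 linear model over the 24 arrays, with 1 coefficient for each group (limma 3.58.1, R 4.3.3, lmFit and eBayes), adjusted by Benjamini-Hochberg over the 27022 and called at 0.05. The fit was tested on simulated arrays. Correlations used 100000 permutations within groups, two-sided. Differences are printed for Hspa1a and Hspa1b, and for up to 5 members per comparison with an unadjusted p under 0.05. Others were chosen after their values were seen.

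Genes were named from probe sets with 1 symbol (34958, with 932 of several symbols and 9211 unnamed), and all 10 members matched the GRCm38.p6 gene table. Alternatives were no quantile normalisation, an offset of 1, no dim filter, only the arrays compared, the replicate number as a block, array weights, sex as a covariate, each array left out, and a variance that was trended and robust. Fits without the 4 arrays of limma weight under 0.5 (those that stood apart), and with weights and sex together, were added after seeing the data. The number of arrays limits the precision. Figures were drawn with matplotlib 3.10.9.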

Additional observations from a re-analysis of the deposited data

Results flagged for a closer look

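Of 128 groups of 6 values (32 probe sets in 4 groups), 15 held an array far from the other 5 by Dixon's test, and chance flags about 1 in 20 groups. For Hspa1a (1452388_at), aSYN/Hsp70 replicate 4 stood at 7.86 log2 units (the others 10.97 to 11.53), aSYN replicate 5 at 10.75 and wt replicate 3 at 10.26. For Hspa1b (1427127_x_at), aSYN/Hsp70 replicate 2 stood at 11.19 (the others 12.45 to 12.82) and wt replicate 4 at 13.66 (the others 11.55 to 12.11). Hspa2 stood at 11.93 in aSYN replicate 5.

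Several of the values came from the 4 arrays that stood apart in quality. In aSYN/Hsp70 replicate 4, Hspa9 (1418504_at) stood at 13.37 and Hspa4l (1458385_at) at 11.38. In Hsp70 replicate 3, Hspa8 (1455789_x_at) stood at 16.61, Hspa9 (1418503_at) at 12.60 and Hspa4l (1429106_at) at 11.91. In Hsp70 replicate 6, Hspa4 (1416147_at) stood at 10.49, where the others lay between 11.67 and 12.08. The remaining values were Hspa8 (1420623_x_at) at 16.89 in aSYN/Hsp70 replicate 6, the untested Hspa14 probe set 1439826_at at 8.09 in aSYN replicate 2 and Hspa4l (1458385_at) at 11.80 in aSYN replicate 1.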

How the results depend on the processing

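The member count stayed at 0 under each alternative and with each array left out, and of 792 refits of the 31 named differences 768 kept their direction, 24 turned and 0 reached a limma adjusted p of 0.05. The turned ones were of Hspa1a and Hspa1b, none of which had passed. With the sex covariate, Hspa1b 1427126_at was at -0.123 for aSYN/Hsp70 versus aSYN. With weights and sex together it was at -0.0247, Hspa1a at 0.0278 there, and Hspa1b 1427127_x_at at -0.051 for Hsp70 versus wt. Without the 4 arrays that stood apart, Hspa1a was at 0.103 for aSYN/Hsp70 versus aSYN and at 0.0026 for carriers, where Hspa1b 1427126_at was at 0.0499, and at 0.0627 with array weights. With an array left out, ranges for Hsp70 versus wt were -0.218 to 0.0689 (Hspa1a), -0.336 to 0.125 (Hspa1b 1427126_at), -0.0903 to 0.487 (1427127_x_at) and 0.116 without Hsp70 replicate 6 to 0.522 without wt replicate 4 (1452318_a_at). They were -0.665 to 0.0668 (Hspa1a) and -0.0224 to 0.286 (1427126_at) for aSYN/Hsp70 versus aSYN, and -0.116 to 0.115 (1427126_at) for carriers. The correlation of Hspa8 with Hspa14 was -0.142 without quantile normalisation; the cause was not tested.

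Partner genes called for aSYN/Hsp70 versus aSYN numbered 2 with array weights or the trended variance, where Bag1 joined Dnajc6, 0 with only these groups' arrays, and 1 to 4 with an array left out, the 4 without aSYN/Hsp70 replicate 6, with Bag4 and Dnaja1. Without replicate 1 or 2 of aSYN/Hsp70 it was 2. Dnajc6 was the 1 call for aSYN versus wt with array weights, without the 4 arrays and with weights and sex, and for the interaction with array weights and with weights and sex (0 to 1 with an array left out, the 1 without aSYN/Hsp70 replicate 6).

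The replicate block left the member count at 0 in all 7 comparisons. It rests on a shared number only: 8 of 24 arrays correlated best with an array of their own number. The count that chance would give was not worked out, and whether the number marks anything shared was not tested.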
